A study of Mus musculus with 12 samples.

Results

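The RNA of 40 cell cycle and proliferation genes was examined in pancreatic islets of mice with 2, 1 or no intact copies of Wfs1. The genes were taken by symbol from the 24078 entries of the deposited expression table, and each of the 40 had exactly 1 entry. By role they were 5 D and E cyclins, 3 A and B cyclins, 4 cyclin-dependent kinases (CDKs), 6 CDK inhibitors, 4 genes of Rb1 and transcriptional regulators, 10 genes of replication licensing and DNA synthesis, and 8 mitotic genes. All 40 averaged 0.1 RPKM or more, the level required for testing, so none was left out.

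Cells enter the division cycle from G1 phase when D cyclins with Cdk4 or Cdk6, and then E cyclins with Cdk2, phosphorylate the retinoblastoma protein and release E2F transcription factors. The released factors turn on the genes of DNA replication, while A and B cyclins with Cdk1 drive cells into mitosis, and the CDK inhibitors hold these kinases back. Adult beta cells of the islet divide rarely. They rely largely on Cdk4 and D cyclins, among which Ccnd2 is the best known in mouse islets.

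Islet RNA was sequenced from 4 wild-type (WT), 4 heterozygous (Wfs1HZ) and 4 homozygous mutant (Wfs1KO) animals, with 1 library for each animal. All were adult male F2 hybrids of 129S6/SvEvTac and C57BL/6 mice. The mutant allele, Wfs1tm1Koks, is present in all tissues and carries a LacZ cassette in place of most of the last coding exon, so that a transcript of a truncated fusion protein can still be made. Islets were picked by hand after collagenase digestion and kept overnight in culture medium with high glucose before RNA was extracted, which holds for the WT animals as well. Wfs1 encodes wolframin, a membrane protein of the endoplasmic reticulum. Values are RPKM (reads per kilobase of transcript, divided by all mapped reads), which are scaled to length and can be compared between genes.

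Wfs1 itself had 33.94, 27.37, 24.85 and 28.43 RPKM in WT islets, 15.03, 4.69, 16.43 and 8.16 RPKM in Wfs1HZ islets, and 5.08, 6.61, 3.46 and 2.45 RPKM in Wfs1KO islets. Every mutant animal was below every WT animal. Differences between genotypes are given as log2FC, the difference of group means of log2(RPKM + 0.1). For Wfs1 this was -2.76 in Wfs1KO relative to WT (standard error 0.29, adjusted p = 0.04, limma) and -1.52 in Wfs1HZ relative to WT (standard error 0.37, adjusted p = 1, limma).

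The number of reads behind the RPKM was estimated from short RNA genes at 2155000 (Wfs1HZ replicate 2) to 9418000 (Wfs1KO replicate 1), so 3 reads on a transcript of 2 kb stood for 0.159 to 0.696 RPKM. Such limits cover counting error only. The search for these read numbers was capped below the read numbers that the paper reports per sample, so they may be too low. The islet hormone genes were abundant in all libraries, and the markers of beta cells summed to 12509.95 RPKM or more. Among the defining beta cell markers Mafa was listed at 0 in 10 of the 12 animals and had at most 0.35 RPKM. Markers of exocrine acinar cells were present everywhere and uneven, from 8158.34 RPKM in Wfs1KO replicate 4 to 297336.41 RPKM in Wfs1HZ replicate 4. The library of Wfs1HZ replicate 2 stood apart, with a median of 4.15 RPKM over the 21701 transcripts tested against 1.2 to 2.49 RPKM in the other 11 libraries. In whole islets fewer cells of a type and less RNA per cell cannot be told apart.

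Per kilobase, 4 genes stood above the rest of the list, all of them cyclins, kinases or inhibitors of the G1 phase. Cdkn1a, which encodes a CDK inhibitor induced by p53 and other signals, had the highest mean of the 40 genes at 163.8 RPKM over the 12 animals, above 99.4% of all entries. Ccnd2 followed with 127.1 RPKM, Cdk4 with 62.7 RPKM and Ccnd1 with 30.7 RPKM. The means of the remaining 36 genes were at most 11.6 RPKM, the level of Rb1, and other genes of the G1 phase were low, among them Ccne1 (0.935 RPKM), E2f1 (0.941 RPKM) and Cdkn2a, the lowest of the 40 at 0.126 RPKM. The 8 mitotic genes together had a summed level of 1.69 to 4.79 RPKM in WT, 1.5 to 11.87 RPKM in Wfs1HZ and 3.74 to 4.03 RPKM in Wfs1KO islets.

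**Figure D1:**
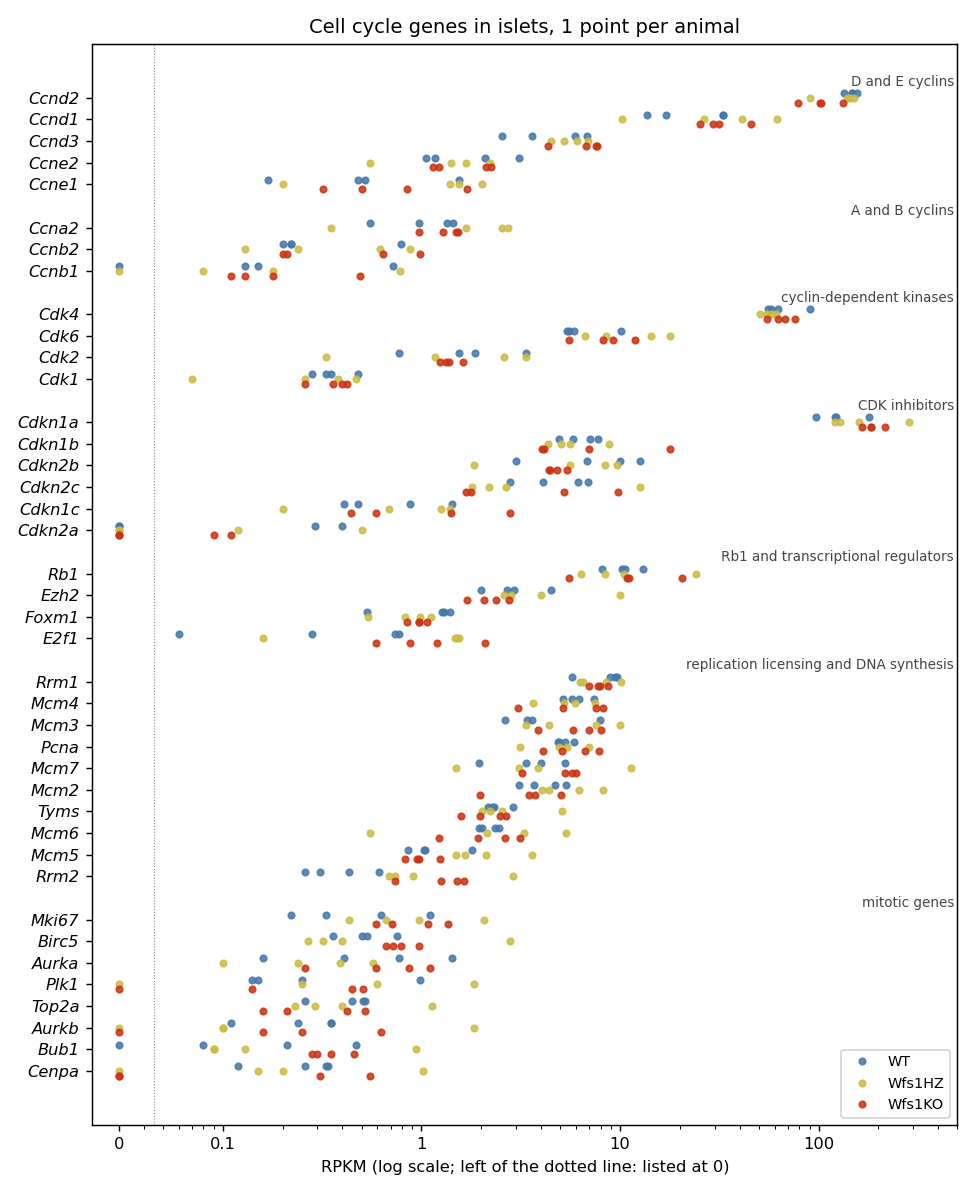
RPKM of each of the 40 genes in every animal, on a log scale, with 1 point for each animal coloured by genotype and genes grouped by role; points left of the dotted line are listed at 0. Cdkn1a, Ccnd2 and Cdk4 lie above 50 RPKM in all 12 animals, whereas the 8 mitotic genes lie below 3 RPKM, and for most genes the 3 genotypes cover the same range.

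The promoter sequences are shown for Cdkn1a and Rrm2, which had an unadjusted p under 0.05 between Wfs1KO and WT, and for Mki67, Top2a and Cdk1, the usual markers of dividing cells. They were chosen with the motif counts known. Cell cycle promoters were searched on both strands for the CCAAT box (CCAAT), bound by the factor NF-Y, for the cell cycle homology region (TTTGAA) and for an E2F site (TTTGGCGC or TTTCCCGC). The windows are from RefSeq on build GRCm38.p6, reach up to 250 bases before the transcript start, and are written along the strand of the gene with motifs in capitals in either orientation. In order they are chr12:24708004-24708240 (plus strand) for Rrm2, chr17:29090729-29090975 (plus strand) for Cdkn1a, chr7:135716380-135716629 (minus strand) for Mki67, chr11:99024190-99024439 (minus strand) for Top2a and chr10:69352939-69353162 (minus strand) for Cdk1.
Rrm2: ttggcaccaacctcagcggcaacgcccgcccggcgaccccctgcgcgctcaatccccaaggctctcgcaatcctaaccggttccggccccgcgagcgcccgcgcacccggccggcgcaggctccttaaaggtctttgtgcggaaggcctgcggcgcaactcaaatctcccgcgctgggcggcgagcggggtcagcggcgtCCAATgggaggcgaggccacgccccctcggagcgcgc
Cdkn1a: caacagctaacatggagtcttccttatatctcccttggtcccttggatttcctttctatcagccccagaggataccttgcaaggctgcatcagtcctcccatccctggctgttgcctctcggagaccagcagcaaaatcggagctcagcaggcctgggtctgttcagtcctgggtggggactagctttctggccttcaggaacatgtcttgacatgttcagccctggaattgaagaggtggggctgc
Mki67: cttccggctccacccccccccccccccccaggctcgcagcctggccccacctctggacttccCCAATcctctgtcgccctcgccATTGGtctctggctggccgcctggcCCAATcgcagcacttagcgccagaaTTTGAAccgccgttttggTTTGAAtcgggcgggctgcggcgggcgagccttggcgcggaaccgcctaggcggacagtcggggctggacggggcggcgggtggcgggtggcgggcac
Top2a: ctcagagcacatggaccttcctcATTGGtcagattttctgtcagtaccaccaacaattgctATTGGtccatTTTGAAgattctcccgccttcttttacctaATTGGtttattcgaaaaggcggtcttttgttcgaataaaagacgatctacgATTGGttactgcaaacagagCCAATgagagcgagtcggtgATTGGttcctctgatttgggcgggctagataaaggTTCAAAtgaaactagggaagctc
Cdk1: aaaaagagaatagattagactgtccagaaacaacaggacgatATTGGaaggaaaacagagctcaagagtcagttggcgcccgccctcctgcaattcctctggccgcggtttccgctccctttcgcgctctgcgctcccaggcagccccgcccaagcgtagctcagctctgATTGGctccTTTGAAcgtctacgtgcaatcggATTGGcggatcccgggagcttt

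The printed stretch of Top2a held 6 CCAAT boxes and 2 cell cycle homology regions, that of Mki67 held 3 and 2, and that of Cdk1 held 3 and 1. Stretches end before the first annotated transcript start, so those of Rrm2, Cdkn1a and Cdk1 are shorter than the 250 bases counted below, in which Cdk1 had 2 cell cycle homology regions. Rrm2 had 1 CCAAT box and Cdkn1a had none of the motifs. Sequences were matched for 31 of the 40 genes, with 36 windows in all, and Ccnd1, Ccnd2, Ccne2, Ccna2, Cdkn1c, Rb1, Foxm1, Mcm4 and Aurkb had no match. At least 2 CCAAT boxes were found in 5 of 7 windows of mitotic genes (71.4%), 5 of 10 of replication genes (50%) and 2 of 2 of A and B cyclins. They were found in 1 of 8 windows of CDK inhibitors (12.5%) and in 15 of the 36 windows in all (41.7%), against 10.1% of 32851 windows of all genes. An E2F site was found in 3 of 10 windows of replication genes (30%), against 1.3% of all windows. The cell cycle homology region was found in 2 of 7 windows of mitotic genes (28.6%), against 16% of all windows. These matches describe letters in the windows and are not evidence of binding.

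Between genotypes, no cell cycle gene reached an adjusted p under 0.05 by limma in any of the 3 comparisons. In simulated data 40.5% of genes changed by a log2 of 2 reached this threshold, so real changes could be missed. Between Wfs1KO and WT 3 of the 40 genes had an unadjusted p under 0.05, namely Rrm2 and Cdkn1a, both higher in Wfs1KO, and Ccnd2, which was lower. After median-of-ratios scaling or quantile normalization this was 1 gene higher and 1 lower. The background in this comparison was 5.64% of all transcripts tested with an unadjusted p under 0.05, 2.74% with no overlap between the animals and 0.0138% with an adjusted p under 0.05. The 3 genes stand for 7.5% of the list, and 2 genes without overlap stand for 5%. Of the 40 genes 21 were above and 19 below WT in Wfs1KO islets, with a median log2FC of 0.03 beside 0.07 for all transcripts, and 18 were above and 22 below after quantile normalization.

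Between Wfs1KO and Wfs1HZ 0 of the 40 genes had an unadjusted p under 0.05, where the background was 2.45% of all transcripts. Only Mcm5 did not overlap between the animals in that comparison, beside 1.43% of all transcripts, and 0% of all transcripts had an adjusted p under 0.05. Here 24 genes were higher in Wfs1KO and 16 were lower, and the median was 0.04, as for all transcripts. Between Wfs1HZ and WT 0 genes had an unadjusted p under 0.05, beside 2.35% of all transcripts. Only Rrm2 did not overlap in this comparison, beside 1.66% of all transcripts, and again 0% had an adjusted p under 0.05. In Wfs1HZ islets 22 genes were higher and 18 lower than in WT, with a median of 0.04, again that of all transcripts, and after quantile normalization 17 were higher and 23 lower. The comparisons share animals and are not independent of each other.

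**Figure D2:**
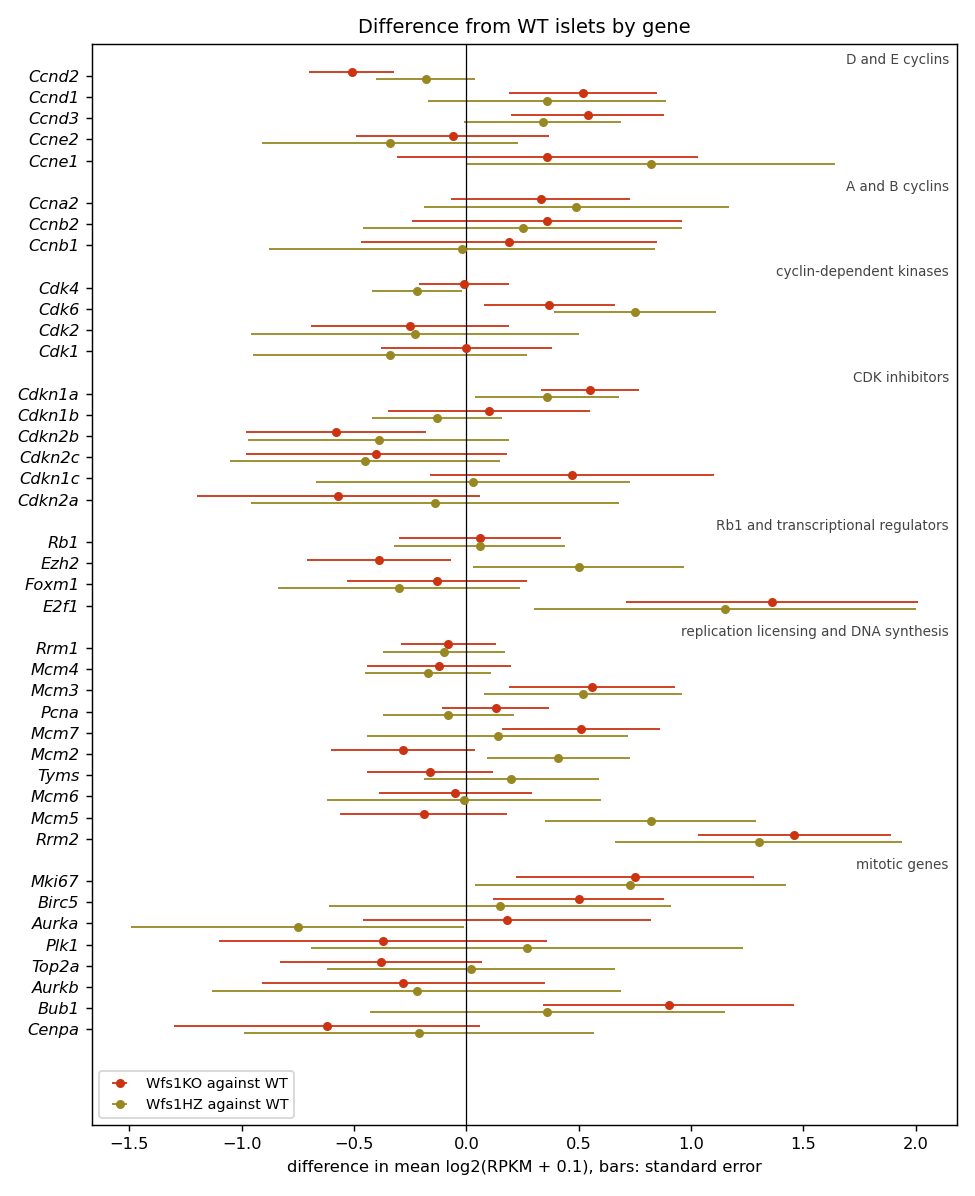
Difference in mean log2(RPKM + 0.1) of each gene from WT islets, in red for Wfs1KO and in olive for Wfs1HZ, with the standard error of the difference as bars. Rrm2 lies farthest to the right in both (1.46 and 1.30), Ccnd2 lies to the left in Wfs1KO (-0.51), and most bars reach or cross 0.

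Among the D and E cyclins, which start the G1 phase and lead out of it, Ccnd2 was the one without overlap between Wfs1KO and WT animals. The gene (chromosome 6, 127125162 to 127152193) had 147.52, 133.81, 156.76 and 146.54 RPKM in WT animals, 139.52, 143.97, 150.98 and 90.4 RPKM in Wfs1HZ animals, and 101.18, 102.85, 78.75 and 133.15 RPKM in Wfs1KO animals. All Wfs1KO values were below all WT values, although the highest of them nearly touched the lowest WT value, and Wfs1HZ replicate 4 lay among the Wfs1KO animals. Mean RPKM was 146 ± 9.43 for WT, 131 ± 27.6 for Wfs1HZ and 104 ± 22.3 for Wfs1KO islets (SD, n = 4 each). Relative to WT, its log2FC in Wfs1KO was -0.51 with a standard error of 0.19 (limma, adjusted p = 0.835), and an exact permutation test, two-sided, gave 0.029, the smallest p that 4 against 4 animals allow. Of 18 alternatives 15 kept an unadjusted p under 0.05, and the 3 that did not were a variance without a trend, all samples in one fit and the omission of WT replicate 3. Of 7 beta cell markers tested 6 were also lower in Wfs1KO than in WT, and their summed level over 8 markers was 32005.47 to 179825.12 RPKM in WT and 22318.48 to 91397.95 RPKM in Wfs1KO islets. The part of the beta cell share in the values of Ccnd2 was not tested.

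Ccnd1 had 17.04, 33.09, 33.08 and 13.6 RPKM in WT, 41.36, 61.53, 26.5 and 10.2 RPKM in Wfs1HZ, and 29.34, 31.44, 25.38 and 45.79 RPKM in Wfs1KO islets. The genotypes overlapped, with the highest and the lowest value both in Wfs1HZ animals. Wfs1KO relative to WT had a log2FC of 0.52 (standard error 0.33, adjusted p = 0.893, limma). Ccnd3, the least abundant of the D cyclins, had 6.82, 3.59, 2.56 and 5.91 RPKM in WT, 6.05, 5.21, 6.87 and 4.47 RPKM in Wfs1HZ, and 7.7, 6.72, 4.36 and 7.61 RPKM in Wfs1KO islets. The ranges overlapped, and log2FC in Wfs1KO relative to WT was 0.54 (standard error 0.34, adjusted p = 0.893, limma). Both values were of opposite sign to that of Ccnd2, and the difference between the D cyclins was not tested. Ccne1 and Ccne2, partners of Cdk2 at the start of DNA replication, ranged from 0.17 to 2.01 RPKM and from 0.55 to 3.11 RPKM over the 12 animals, and their genotypes overlapped in all comparisons.

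Of the A and B cyclins, which act in S phase and mitosis, Ccna2 was the most abundant. Its values were 1.45, 1.34, 0.97 and 0.55 RPKM in WT, 1.67, 2.74, 2.55 and 0.35 RPKM in Wfs1HZ, and 1.29, 1.49, 1.53 and 0.97 RPKM in Wfs1KO islets. The Wfs1HZ animals held both extremes, and Wfs1KO animals lay within the range of the WT animals apart from 2 that were slightly higher. Set against WT, Wfs1KO had a log2FC of 0.33 (standard error 0.40, adjusted p = 0.945, limma). Ccnb1 and Ccnb2 stayed at or below 0.98 RPKM, and Ccnb1 was listed at 0 in 2 animals. Over all 12 libraries these levels stood for about 45 and 47 reads, so a difference between genotypes was hardly detectable at this estimated depth.

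Among the kinases Cdk4, the main partner of D cyclins in islets, was abundant and even. It had 90.05, 57.67, 62.73 and 55.77 RPKM in WT, 61.17, 54.96, 50.82 and 57.8 RPKM in Wfs1HZ, and 67.93, 75.71, 62.36 and 55.09 RPKM in Wfs1KO islets. WT replicate 1 was highest and the other 11 animals lay between 50.82 and 75.71 RPKM. In Wfs1KO relative to WT, log2FC was -0.01 (standard error 0.20, adjusted p = 1, limma). Cdk1, the kinase that drives mitosis, had 0.28, 0.35, 0.48 and 0.33 RPKM in WT, 0.26, 0.47, 0.38 and 0.07 RPKM in Wfs1HZ, and 0.36, 0.4, 0.26 and 0.42 RPKM in Wfs1KO islets. Its group means were the same in WT and Wfs1KO islets, 0.36 ± 0.0852 and 0.36 ± 0.0712 RPKM (SD, n = 4 each). The kinase lay near the value of a few reads in every library, an estimated 1.5 to 14.8 of them. Cdk6, an alternative partner of D cyclins, ranged from 5.41 to 10.07 RPKM in WT, from 6.65 to 17.77 RPKM in Wfs1HZ and from 5.54 to 11.97 RPKM in Wfs1KO islets. Its log2FC in Wfs1HZ relative to WT was 0.75 (standard error 0.36, adjusted p = 1, limma; exact permutation p = 0.114), and 6 of 18 alternatives gave an unadjusted p under 0.05. Cdk2 ranged from 0.33 to 3.36 RPKM with overlap in every comparison.

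The CDK inhibitors were dominated by Cdkn1a (chromosome 17, 29090976 to 29100727). It had 97.11, 120.73, 122.68 and 180.31 RPKM in WT, 120.97, 285.6, 128.8 and 160.31 RPKM in Wfs1HZ, and 183.34, 164.48, 184.57 and 216.48 RPKM in Wfs1KO islets. The Wfs1KO animals were above 3 of the 4 WT animals, while WT replicate 4 lay within their range, and the highest value of all was that of Wfs1HZ replicate 2. Mean RPKM was 130 ± 35.4 for WT, 174 ± 76.4 for Wfs1HZ and 187 ± 21.6 for Wfs1KO islets (SD, n = 4 each). Relative to WT, its log2FC in Wfs1KO was 0.55 with a standard error of 0.22 (limma, adjusted p = 0.844; exact permutation p = 0.057). Only 9 of 18 alternatives kept an unadjusted p under 0.05. Both scalings lost it, as did the omission of WT replicate 1, 2 or 3 or of Wfs1KO replicate 1 or 4, and log2FC lay between 0.43 and 0.72.

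Cdkn1b, an inhibitor of CDK2 complexes that is held in quiescent cells, had 7.05, 7.79, 4.95 and 5.8 RPKM in WT, 5.6, 8.83, 5.05 and 4.35 RPKM in Wfs1HZ, and 6.97, 4.16, 4.04 and 17.91 RPKM in Wfs1KO islets. Apart from Wfs1KO replicate 4 the animals shared the same range. Wfs1KO relative to WT had a log2FC of 0.10 (standard error 0.45, adjusted p = 0.995, limma). Cdkn1c, the imprinted member of the same family, had 0.41, 1.43, 0.88 and 0.48 RPKM in WT, 1.25, 1.4, 0.69 and 0.2 RPKM in Wfs1HZ, and 0.59, 1.41, 0.44 and 2.79 RPKM in Wfs1KO islets. Wfs1KO replicate 4 was again the highest, and the groups overlapped (log2FC 0.47, standard error 0.63, adjusted p = 0.951, limma).

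Cdkn2a, which encodes inhibitors that accumulate with age in many tissues, was almost not detected. It had 0.4, 0.29, 0 and 0 RPKM in WT, 0.5, 0, 0.12 and 0 RPKM in Wfs1HZ, and 0.09, 0, 0.11 and 0 RPKM in Wfs1KO islets. No library held more than about 3.1 reads of it and 6 of 12 were listed at 0, so a difference was hardly detectable at this estimated depth. Its neighbour Cdkn2b, an inhibitor of Cdk4 and Cdk6, was clearly expressed, at 3 to 12.58 RPKM in WT, 1.84 to 9.67 RPKM in Wfs1HZ and 4.4 to 5.41 RPKM in Wfs1KO islets. The narrow Wfs1KO values lay inside the range of WT (log2FC -0.58, standard error 0.40, adjusted p = 0.916, limma). Without WT replicate 4 log2FC was -0.99 with an unadjusted p under 0.05. Cdkn2c ranged from 1.67 to 12.67 RPKM with no separation of genotypes.

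Rb1, which encodes the retinoblastoma protein, was the most abundant gene of its group. It had 13.11, 10.21, 10.57 and 8.11 RPKM in WT, 10.53, 24.14, 8.38 and 6.35 RPKM in Wfs1HZ, and 11.05, 10.82, 5.53 and 20.48 RPKM in Wfs1KO islets. The genotypes overlapped, and log2FC in Wfs1KO relative to WT was 0.06 (standard error 0.36, adjusted p = 0.998, limma). E2f1, which activates replication genes, was much lower, at 0.06 to 0.77 RPKM in WT, 0.16 to 1.54 RPKM in Wfs1HZ and 0.59 to 2.08 RPKM in Wfs1KO islets. Relative to WT, log2FC in Wfs1KO was 1.36 (standard error 0.65, adjusted p = 0.879, limma; exact permutation p = 0.114), with overlap of WT replicates 1 and 2 and the lowest Wfs1KO animal. Ezh2, a histone methyltransferase, ranged from 1.7 to 2.77 RPKM in Wfs1KO islets and from 2.61 to 10.06 RPKM in Wfs1HZ islets (log2FC -0.90, standard error 0.47, adjusted p = 1, limma; exact permutation p = 0.057). Foxm1, a factor for genes of G2 phase and mitosis, stayed between 0.53 and 1.4 RPKM in all animals.

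In the group of replication genes the subunits of ribonucleotide reductase, which makes the building blocks of DNA, had unlike levels. Rrm2 (chromosome 12, 24708241 to 24714146) encodes the small subunit whose RNA is raised in S phase. It had 0.26, 0.61, 0.31 and 0.43 RPKM in WT, 0.69, 2.91, 0.74 and 0.91 RPKM in Wfs1HZ, and 1.52, 0.74, 1.64 and 1.25 RPKM in Wfs1KO islets. All 8 mutant animals were above all WT animals, and Wfs1HZ and Wfs1KO animals overlapped. Mean RPKM was 0.402 ± 0.156 for WT, 1.31 ± 1.07 for Wfs1HZ and 1.29 ± 0.4 for Wfs1KO islets (SD, n = 4 each).

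Rrm2 had a log2FC of 1.46 in Wfs1KO relative to WT, with a standard error of 0.43 (limma, adjusted p = 0.835; exact permutation p = 0.029). In Wfs1HZ relative to WT it was 1.30, with a standard error of 0.64 (limma, adjusted p = 1; exact permutation p = 0.029). All 18 alternatives kept an unadjusted p under 0.05 between Wfs1KO and WT, with log2 values from 0.69, with a pseudocount of 1, to 1.69. For Wfs1HZ against WT 3 of 18 did, and without Wfs1HZ replicate 2 log2FC was 0.85. These levels were low in absolute terms, at about 5.0, 12.0, 1.9 and 5.9 reads in WT animals, 7.9, 13.8, 11.7 and 10.0 reads in Wfs1HZ animals and 31.4, 9.8, 28.5 and 8.9 reads in Wfs1KO animals.

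Rrm1, the large subunit, had 8.94, 9.71, 9.48 and 5.72 RPKM in WT, 8.55, 10.09, 6.53 and 6.3 RPKM in Wfs1HZ, and 8.72, 7.73, 7.01 and 7.94 RPKM in Wfs1KO islets. In contrast to Rrm2, it was the most abundant gene of the group and the genotypes overlapped. Set against WT, Wfs1KO had a log2FC of -0.08 (standard error 0.21, adjusted p = 0.985, limma). The difference between the subunits was not tested.

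**Figure D3:**
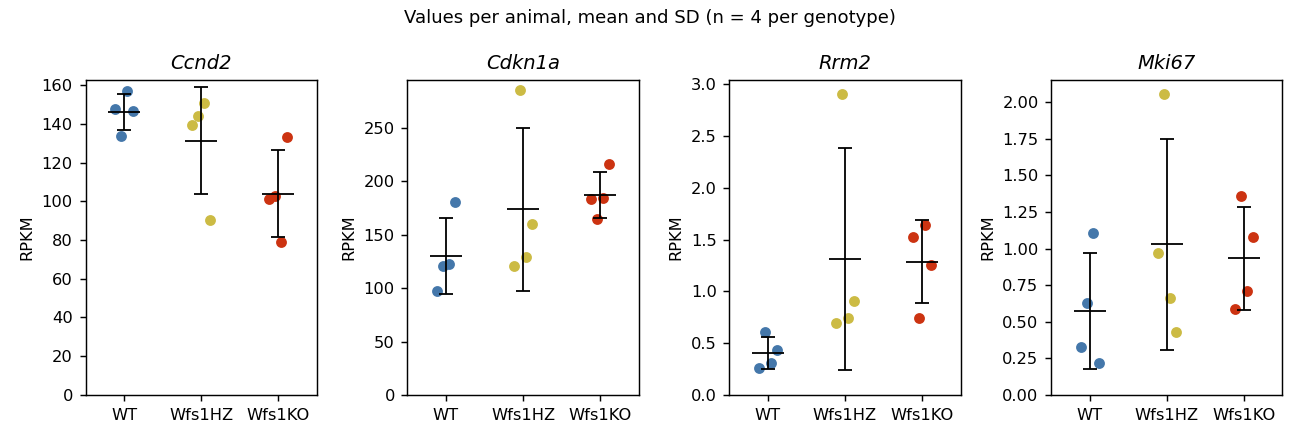
RPKM of Ccnd2, Cdkn1a, Rrm2 and Mki67 in each animal (points) with the mean (long line) and SD (bars) of the 4 animals of each genotype. Ccnd2 is lower in all Wfs1KO than in all WT animals, Rrm2 is higher in all 8 mutant animals, and Cdkn1a and Mki67 overlap between genotypes; the highest points of Cdkn1a, Rrm2 and Mki67 are all Wfs1HZ replicate 2.

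Mcm5, a subunit of the helicase that licenses origins of replication, had 1.03, 1.04, 1.8 and 0.86 RPKM in WT, 1.65, 2.12, 1.5 and 3.59 RPKM in Wfs1HZ, and 0.97, 0.95, 0.83 and 1.24 RPKM in Wfs1KO islets. The Wfs1KO animals were all below the Wfs1HZ animals. WT replicates 1, 2 and 4 lay within the Wfs1KO range, and WT replicate 3 (1.8 RPKM) lay within the Wfs1HZ range. Relative to Wfs1HZ, its log2FC in Wfs1KO was -1.01 (standard error 0.48, adjusted p = 1, limma; exact permutation p = 0.029). Its partners in the same complex gave log2 values of -0.69 for Mcm2, 0.04 for Mcm3, 0.05 for Mcm4, -0.04 for Mcm6 and 0.37 for Mcm7 in that comparison, each with overlap. Without Wfs1HZ replicate 4, which held the highest Mcm5 value, it was -0.76. Pcna, the sliding clamp of the polymerases, stayed between 3.15 and 7.83 RPKM, and Tyms, thymidylate synthase, between 1.58 and 2.88 RPKM apart from 5.1 RPKM in Wfs1HZ replicate 2. Of the 10 replication genes 4 were above and 6 below WT in Wfs1KO islets, and their median log2FC was -0.07.

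Mki67, which encodes the Ki-67 antigen of dividing cells, had 0.33, 0.63, 1.11 and 0.22 RPKM in WT, 0.97, 2.06, 0.66 and 0.43 RPKM in Wfs1HZ, and 0.59, 1.36, 0.71 and 1.08 RPKM in Wfs1KO islets. The means were 0.573 ± 0.398, 1.03 ± 0.721 and 0.935 ± 0.352 RPKM (SD, n = 4 each), and the groups overlapped. Relative to WT, log2FC was 0.75 in Wfs1KO (standard error 0.53, adjusted p = 0.919, limma) and 0.73 in Wfs1HZ (standard error 0.69, adjusted p = 1, limma). Top2a, the topoisomerase that untangles chromosomes, had 0.26, 0.51, 0.52 and 0.45 RPKM in WT, 0.4, 1.13, 0.29 and 0.23 RPKM in Wfs1HZ, and 0.42, 0.16, 0.21 and 0.52 RPKM in Wfs1KO islets. Its log2FC between Wfs1KO and WT had the opposite sign, -0.38 (standard error 0.45, adjusted p = 0.944, limma).

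Among the kinases and chromosome proteins of mitosis, the log2FC values between Wfs1KO and WT were also of both signs. Bub1, a kinase of the spindle checkpoint, gave 0.90 (standard error 0.56) and Birc5, a subunit of the chromosomal passenger complex, gave 0.50 (standard error 0.38). Cenpa, the histone of centromeres, gave -0.62 (standard error 0.68) and Plk1, a mitotic kinase, gave -0.37 (standard error 0.73). Aurka and Aurkb, kinases of the spindle and of the passenger complex, gave 0.18 and -0.28. Thus 4 mitotic genes were higher and 4 lower, with a median of -0.05. Each of Aurka, Aurkb, Plk1, Bub1 and Cenpa stood for an estimated total of fewer than 100 reads over all 12 libraries together.

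The cyclins and inhibitors were set against the mitotic genes within each animal, since the scaling of a library largely cancels in a ratio. This does not hold for genes near the 0.1 RPKM added before taking logs, and most mitotic genes were low. The mean log2 level of the 6 CDK inhibitors exceeded that of the 8 mitotic genes by 2.74 to 3.73 in WT, 2.12 to 3.73 in Wfs1HZ and 2.46 to 4.05 in Wfs1KO islets. For the 5 D and E cyclins the excess was 3.19 to 4.44 in WT, 2.9 to 4.91 in Wfs1HZ and 3.33 to 4.92 in Wfs1KO islets. The 3 genotypes overlapped on both measures, and the lowest excess of both was that of Wfs1HZ replicate 2. The highest excess of both was that of Wfs1KO replicate 4, in which 3 of the 8 mitotic genes were not detected. In that library the mean log2 level of the mitotic genes was the lowest of the Wfs1KO animals (-1.4). Their summed level was the highest of the Wfs1KO animals (4.03 RPKM). The part of undetected genes in these differences was not tested. In summed RPKM the inhibitors had 115.88 to 192.39 in WT, 140.19 to 316.93 in Wfs1HZ and 179.7 to 252.4 in Wfs1KO islets, mostly Cdkn1a. The D and E cyclins had 167.59 to 193.74, 105.82 to 213.51 and 109.96 to 190.5 RPKM in the same order, mostly Ccnd2.

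**Figure D4:**
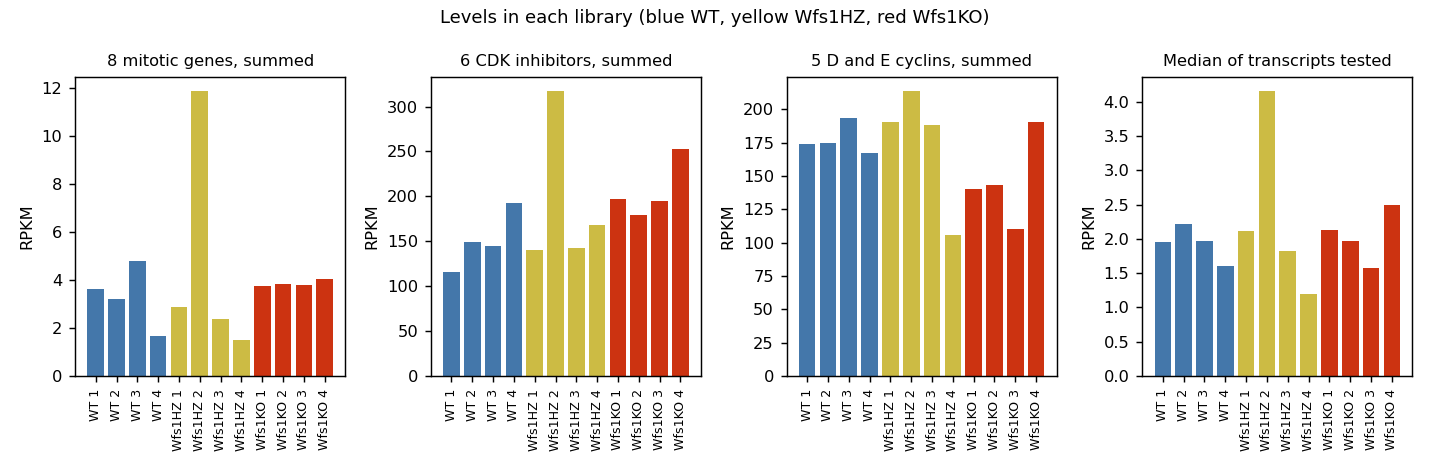
Summed RPKM of the mitotic genes, the CDK inhibitors and the D and E cyclins, and the median RPKM of all transcripts tested, with 1 bar for each library (blue WT, yellow Wfs1HZ, red Wfs1KO). Wfs1HZ replicate 2 has 11.87 RPKM of mitotic genes against at most 4.79 RPKM in any other library, and also the highest median of all transcripts (4.15 RPKM).

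Wfs1HZ replicate 2 bore on the comparisons of mitotic genes that include Wfs1HZ animals, and took no part in that of Wfs1KO with WT. It was the highest of the 12 libraries for 7 of the 8 mitotic genes, all but Aurka, and for 21 of the 40 cell cycle genes, while it was highest for 46.4% of all transcripts tested. After median-of-ratios scaling it was still highest for 7 mitotic genes, for 14 of the 40 genes and for 32% of all transcripts. The same library had the highest summed level of stromal markers, 360.55 RPKM against 12.52 to 133.51 RPKM in the others, and the lowest estimated number of reads. Its immune markers had the highest mean log2 level, 2.31 against at most 1.28, although their sum (45.39 RPKM) was not the highest. Leaving out the library that was highest for 7 of the 8 mitotic genes lowers their Wfs1HZ means by construction. The shifts and p-values under this omission are therefore no test of the mitotic genes. Without this library the mitotic genes had a median log2FC of 0.62 in Wfs1KO relative to Wfs1HZ islets, beside 0.28 for all transcripts. None was lower in Wfs1KO, although Top2a (0.00) and Plk1 (0.04) were level, and Bub1 (1.13) and Birc5 (1.04) had an unadjusted p under 0.05. Of all 21701 transcripts 1308 had such a p under the same omission, and 74% were higher in Wfs1KO. With this library 4 mitotic genes were higher and 4 lower, and their median was -0.02. Between Wfs1HZ and WT, again without this library, 1 mitotic gene was higher and 7 were lower, with a median of -0.48 beside -0.19 for all transcripts. Wfs1HZ replicate 4 was lowest for 12 of the 40 genes, of which 1 was mitotic, and for 31.3% of all transcripts. After median-of-ratios scaling it was lowest for 8 and highest for 6 of the 40 genes, beside 11.4% and 10.3% of all transcripts. Without this library 31 of the 40 genes were higher in Wfs1HZ than in WT, with a median of 0.37 beside 0.26 for all transcripts.

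Markers of other cell types also had unlike levels between the genotypes. Between Wfs1KO and WT 5 of 5 endothelial markers were higher, with a summed level of 18.49 to 48.5 RPKM in WT and 52.52 to 59.48 RPKM in Wfs1KO islets, and 6 of 7 stromal markers were higher, with 19.27 to 60.51 RPKM and 58.81 to 133.51 RPKM. Of all transcripts 57.4% were higher in this comparison. None of these endothelial and stromal markers was at 0 in a whole group. Immune markers summed to 33.09 to 146.61 RPKM in WT and 17.67 to 69.31 RPKM in Wfs1KO islets, and 5 of 7 were higher. These sums were mostly Cd68, which had a lower mean in Wfs1KO (42.1 RPKM) than in WT islets (72.7 RPKM). Acinar markers, of which 1 of 9 was higher in Wfs1KO, and ductal markers, of which 4 of 7 were higher, covered wide ranges in all genotypes. The part of such cells in the levels of Rrm2, Cdkn1a and the mitotic genes was not tested.

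Further genes of the same pathways, listed apart from the 40, also included none with an adjusted p under 0.05. Between Wfs1KO and WT 1 of 35 mitotic genes had an unadjusted p under 0.05 by limma, and 1 higher and 2 lower of 28 replication genes. For G1 control it was 2 of 25 genes and for p53 targets 1 of 16, beside 5.64% of all transcripts. The gene of lowest p is named from each list, and 2.74% of all transcripts had no overlap in this comparison. Of 35 further mitotic genes 23 were higher in Wfs1KO than in WT with a median log2FC of 0.16, and the lowest p was that of Smc2, a condensin subunit, which gave -1.04 (adjusted p = 0.85, limma; exact permutation p = 0.057). After quantile normalization 14 of the 35 were higher and the median was -0.08, so the sign of the median depended on the scaling. Of 28 further replication genes 16 were higher with a median of 0.27. Rfc3, a subunit of the clamp loader, was the lowest in p there. It had 5.15, 5.05, 4.79 and 5.78 RPKM in WT, 7.75, 7.86, 4.47 and 3.93 RPKM in Wfs1HZ, and 3.43, 3.34, 2.24 and 2 RPKM in Wfs1KO islets. All Wfs1KO animals were below all others, with a log2FC of -0.93 relative to WT (standard error 0.25, adjusted p = 0.835, limma; exact permutation p = 0.029) and of -1.07 relative to Wfs1HZ (standard error 0.37, adjusted p = 1, limma; exact permutation p = 0.029).

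Of 25 further genes of G1 control 16 were higher in Wfs1KO than in WT, with a median of 0.16, and Myc, a transcription factor for growth, had the lowest p. It had 18.38, 23.06, 22.12 and 25.07 RPKM in WT, 25.35, 41.05, 21.24 and 21 RPKM in Wfs1HZ, and 50.7, 59.02, 29.69 and 28.13 RPKM in Wfs1KO islets. All Wfs1KO animals were above all WT animals (log2FC 0.85, standard error 0.26, adjusted p = 0.835, limma; exact permutation p = 0.029), and Wfs1HZ replicate 2 lay among them. Of 16 targets of p53 other than Cdkn1a 14 were higher in Wfs1KO than in WT, beside 57.4% of all transcripts. The median of these targets was 0.23 beside 0.07 for all transcripts, and Ccng1 among them was also in the list of G1 control. Phlda3, a target that restrains Akt signalling, had the lowest p of them, with a log2FC of 1.18 (standard error 0.40, adjusted p = 0.835, limma; exact permutation p = 0.057). The count was 14 of 16 under median-of-ratios scaling and 13 of 16 under quantile normalization, beside 54.9% and 48.2% of all transcripts. Between Wfs1HZ and WT 13 of the 16 were higher, with a median of 0.29, but Wfs1HZ replicate 2 was the highest of all libraries for 12 of them. Without it 9 were higher and 7 lower, with a median of 0.01 beside -0.19 for all transcripts, and without Wfs1HZ replicate 4 all 16 were higher, with a median of 0.46 beside 0.26. Between Wfs1KO and Wfs1HZ 8 were higher and 8 lower with all animals, and 12 were higher and 4 lower without Wfs1HZ replicate 2, with a median of 0.28, as for all transcripts.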

How the data were processed

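Islet RNA of 12 animals, 4 of each genotype, was measured, and genotype and replicate number were taken from the labels. The authors made cDNA from 10 ng of total RNA, sequenced 75 bp forward and 35 bp reverse reads on a SOLiD instrument and mapped them to mm10 with LifeScope; the gene annotation and counting tool are not given in the sources used here. Per animal, the authors deposited RPKM in 1 column, rounded to 2 decimals. The study used edgeR on counts, which RPKM do not allow.

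The values were taken as log2(RPKM + 0.1) with no other scaling. Each pair of genotypes was fitted with limma 3.58.1 in R 4.3.3, whose variance followed the mean level, and p-values were adjusted by Benjamini-Hochberg across the 21701 transcripts that averaged 0.1 RPKM or more. Fold changes are on the log2(RPKM + 0.1) scale, which understates changes of low genes. An exact permutation test, two-sided, was run for single genes; with 70 assignments of 4 against 4 animals its smallest p is 0.029. The p-values measure the spread between 4 animals of each genotype. The procedure was tested on data simulated for Wfs1KO against WT, with 200 genes changed by a log2 of 2. Of these 88.5% had an unadjusted p under 0.05 and 40.5% an adjusted p under 0.05 by limma. Depth was estimated from the steps between low RPKM of RNA genes under 200 nt; 76% to 87.8% of their values were then within 0.1 of a whole read, and this procedure was adjusted with an earlier estimate known. The search for depth had an upper bound below the number of reads that the paper reports per sample. Approximate reads use the longest transcript in GENCODE M21, from which coordinates (mm10) also come.

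The 40 genes, their roles and all other lists were chosen with earlier results of these data known. Values in every animal are given for Wfs1, genes with an unadjusted p under 0.05 or no overlap, the most abundant gene of each role and the usual readouts of each role; from each further list (mitosis, replication, G1 control, p53 targets) the gene with the lowest p between Wfs1KO and WT is named. Cell type markers were those of beta, alpha, delta, PP, acinar, ductal, endothelial, stromal and immune cells. Between Wfs1KO and WT 0 of 4 alpha, 1 of 2 delta and 1 of 1 PP markers were higher. Alternatives were quantile normalization, median-of-ratios scaling, pseudocounts of 1 and 0.01, a minimum mean of 1 RPKM or none, sample weights, a variance without a trend, all 12 samples in one fit, a replicate block, and the omission of single animals. Omission of the libraries richest or poorest in acinar RNA was an alternative chosen after seeing the data. Python 3.11.15 with numpy 2.4.6, pandas 2.3.3 and matplotlib 3.10.9 did the rest.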

Additional observations from a re-analysis of the deposited data

Results flagged for a closer look

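In 11 of 120 groups of 4 animals (40 genes in 3 genotypes) 1 animal lay far from the other 3 by Dixon's test on RPKM. For normally distributed values chance gives about 1 in 20, but RPKM are skewed, and of these groups 9.17% were set apart beside 15% of the groups of all transcripts tested. On the log2(RPKM + 0.1) scale it was 6.67% beside 9.41%. The cell cycle genes thus held no more such animals than other transcripts. Wfs1HZ replicate 2 was the animal in 6 of the 11, each time the highest: Cdkn2c (12.67 RPKM), Rrm2 (2.91 RPKM), Tyms (5.10 RPKM), Aurkb (1.85 RPKM), Bub1 (0.94 RPKM) and Birc5 (2.78 RPKM). The remaining 5 were spread over other libraries. E2f1 was low in Wfs1HZ replicate 4 (0.16 RPKM) and Foxm1 was low in WT replicate 4 (0.53 RPKM). Ccnb2 was high in WT replicate 2 (0.79 RPKM), Cdk6 in WT replicate 3 (10.07 RPKM) and Plk1 in WT replicate 1 (0.98 RPKM). The values of Aurkb, Bub1, Plk1 and Ccnb2 rest on few reads by the estimate used here.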

How the results depend on the processing

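No cell cycle gene had an adjusted p under 0.05 under any alternative run. The number with an unadjusted p under 0.05 between Wfs1KO and WT was 3, and 1 with a variance without a trend or with all 12 samples in one fit, 2 with either scaling and 4 with sample weights, which added Mcm3. Over all 21701 transcripts tested it was 1225 in the main fit, 1223 without a trend and 658 in one fit. It was 1572 with median-of-ratios scaling, 1486 with quantile normalization and 2066 with sample weights. Between Wfs1KO and Wfs1HZ the number of cell cycle genes was 0, and 1 without a filter on low values, 2 with median-of-ratios scaling and 3 with quantile normalization. It was 1 with a variance without a trend, 2 with sample weights and 2 without the 2 libraries with the least acinar RNA. Over all transcripts the number was 532, and 610 of 22795 without the filter, 795 with median-of-ratios scaling and 886 with quantile normalization. It was 537 without a trend, 2243 with sample weights and 1280 without the 2 libraries with the least acinar RNA. Between Wfs1HZ and WT the number of cell cycle genes was 0, and 2 with median-of-ratios scaling and 1 with quantile normalization. It was 1 with a variance without a trend, 2 with all samples in one fit and 2 with sample weights. Over all 21701 transcripts the number was 511, and 896 with median-of-ratios scaling and 955 with quantile normalization. It was 512 without a trend, 616 in one fit and 1539 with sample weights. With 1 animal left out the number of cell cycle genes was 2 to 4 between Wfs1KO and WT, 0 to 2 between Wfs1KO and Wfs1HZ and 0 to 2 between Wfs1HZ and WT. It was 2 in either of the last comparisons without Wfs1HZ replicate 2 or without Wfs1HZ replicate 4. Over all 21701 transcripts the number was then 918 to 1870, 340 to 1308 and 306 to 1087 in the same order of comparisons. Aurkb between Wfs1KO and Wfs1HZ, -0.06 with all animals, was 1.35 without the 2 libraries with the least acinar RNA. Over 120 gene comparisons 2192 alternative values were computed; 1945 kept direction and side of the threshold, 12 fell short of it, 33 passed it, and 201 changed sign with no p under 0.05 in either fit. The causes were not tested. For animals with the same replicate number, deviations from the genotype means correlated at -0.17 to 0.23 over transcripts. Wfs1HZ replicates 1, 2 and 4 correlated best with the WT animal of their number, and of the Wfs1KO animals only replicate 1 did. The numbers were not taken to pair the animals, but a pairing was not excluded. With the replicate number as a block the counts of cell cycle genes were 3, 0 and 0. Over all transcripts they were 1091, 395 and 854, beside 1225, 532 and 511 without a block. At the lowest estimated depth, that of Wfs1HZ replicate 2, 3 reads on 2 kb are worth 0.696 RPKM. In that library Aurka (0.24 RPKM) lay below this limit and the other mitotic genes lay above it. In the other libraries the limit was 0.159 to 0.535 RPKM, and transcripts of other lengths have other limits.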
